A study of Homo sapiens with 12 samples.

Results

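The bone morphogenetic protein (BMP) ligand genes BMP2, BMP4, BMP6, BMP7 and BMP8B, the BMP antagonist gene GREM1 and the ID genes ID1, ID2, ID3 and ID4 were followed in MDA-MB-468 cells, an established line from a triple-negative breast cancer. The 10 genes were found in the deposited count table by their Ensembl identifiers. All 10 were among its 57783 genes, and all 10 passed the filter on low counts that left 16327 genes for testing. The set was chosen by gene name, with earlier EPZ5676 against DMSO fold changes of these libraries in view, in which GREM1 stood among the larger rises. Values of the 10 genes in the 2 comparisons of EPZ5676 with DMSO are therefore a description, given without p-values. Called means an adjusted p below 0.05 in the fit over all genes, and for the 10 genes in these comparisons it only places them among all genes and supports nothing. RNA had been sequenced in bulk from cells kept for 10 days in 0.5 µM EPZ5676, also named pinometostat, which blocks DOT1L, the enzyme that methylates lysine 79 of histone H3, or in its solvent DMSO. After treatment, cells were sorted by fluorescence-activated cell sorting into ALDH1+ and ALDH1- populations. ALDH1 is a class of aldehyde dehydrogenases, and sorting on it is a common way to enrich for stem-like tumour cells. The groups were EPZ5676 ALDH1+, EPZ5676 ALDH1-, DMSO ALDH1+ and DMSO ALDH1-, with 3 libraries each. All 4 groups share the unmodified parental line, and every library was measured after sorting. The labels call the replicates biological and do not say how the cultures were separated, so p-values measure the spread between these libraries.

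BMPs are secreted ligands of the TGF-beta superfamily. They bind pairs of type I and type II receptor kinases, which phosphorylate SMAD1, SMAD5 and SMAD9, and these enter the nucleus with SMAD4. GREM1 (gremlin 1) is a secreted protein that binds BMP2, BMP4 and BMP7 and keeps them from their receptors. The ID genes are classical transcriptional targets of BMP signalling. Their products lack a DNA-binding region and pair with E proteins, which keeps these basic helix-loop-helix factors from DNA. MDA-MB-468 cells are known to carry a deletion of SMAD4.

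The promoters of GREM1, BMP4, BMP6 and ID3, the genes called in both populations, and of ID1, a common readout of BMP signalling, are shown to set letters known from SMAD binding beside the measured levels. Each line gives the 250 bases upstream of a RefSeq transcription start in GRCh38.p14, read 5′ to 3′ along the gene. Capitals mark GGCGCC, a GC-rich sequence bound by BMP-activated SMADs, and GTCT or its reverse complement AGAC, the short SMAD-binding element. GGCGCC is its own reverse complement, both strands were searched, and the letters of the 2 motifs cannot overlap. The first of 2 annotated GREM1 starts has its window at chr15:32717754-32718003 on the plus strand. For BMP4, the first of 3 starts has its window at chr14:53955051-53955300 on the minus strand. The BMP6 window is chr6:7725849-7726098 on the plus strand. The ID1 window is chr20:31605039-31605288 on the plus strand, and the ID3 window is chr1:23559502-23559751 on the minus strand.
GREM1: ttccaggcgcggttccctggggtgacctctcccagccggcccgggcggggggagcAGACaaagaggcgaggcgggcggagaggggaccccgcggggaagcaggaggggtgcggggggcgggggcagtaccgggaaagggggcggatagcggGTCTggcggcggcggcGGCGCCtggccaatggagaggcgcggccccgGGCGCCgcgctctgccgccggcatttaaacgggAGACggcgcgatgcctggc
BMP4: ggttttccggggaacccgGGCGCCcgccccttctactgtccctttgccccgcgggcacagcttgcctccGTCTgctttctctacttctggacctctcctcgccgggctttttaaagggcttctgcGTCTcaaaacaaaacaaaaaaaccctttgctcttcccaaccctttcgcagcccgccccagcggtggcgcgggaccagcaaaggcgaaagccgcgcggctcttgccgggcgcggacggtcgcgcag
BMP6: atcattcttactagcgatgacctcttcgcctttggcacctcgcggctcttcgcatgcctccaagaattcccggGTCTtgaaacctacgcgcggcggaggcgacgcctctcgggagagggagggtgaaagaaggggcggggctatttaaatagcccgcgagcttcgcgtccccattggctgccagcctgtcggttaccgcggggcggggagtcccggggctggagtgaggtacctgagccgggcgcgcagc
ID1: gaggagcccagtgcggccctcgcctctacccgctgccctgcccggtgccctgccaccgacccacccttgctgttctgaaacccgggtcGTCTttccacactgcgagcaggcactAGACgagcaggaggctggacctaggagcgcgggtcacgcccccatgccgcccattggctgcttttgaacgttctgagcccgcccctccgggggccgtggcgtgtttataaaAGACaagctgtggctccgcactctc
ID3: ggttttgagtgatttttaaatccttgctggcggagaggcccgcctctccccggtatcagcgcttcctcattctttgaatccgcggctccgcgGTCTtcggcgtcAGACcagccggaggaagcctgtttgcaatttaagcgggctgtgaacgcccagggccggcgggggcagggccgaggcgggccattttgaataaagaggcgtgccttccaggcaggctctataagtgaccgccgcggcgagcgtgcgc

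The GREM1 window held 2 GGCGCC and 3 GTCT matches, and the BMP4 window held 1 GGCGCC and 2 GTCT matches. The windows of BMP6, ID1 and ID3 held 1, 3 and 2 GTCT matches and no GGCGCC in these letters. Counting every annotated start of the 8 genes with an entry, 2 of 11 windows held GGCGCC and 10 held GTCT. The windows of BMP8B, ID2 and ID4, the second GREM1 start and the other BMP4 starts had no GGCGCC. Over 35116 RefSeq promoter windows of the same length from 27305 genes, 16.4% held GGCGCC and 77.5% held GTCT on either strand. Entries were matched for 8 of the 10 genes, all except BMP2 and BMP7. GC content was 76.8% in the GREM1 window, 63.6% in BMP4, 64.4% in BMP6, 66.0% in ID1 and 62.0% in ID3, against a median of 58% over all windows. These matches describe letters in a reference sequence, and binding was not measured here. Bases outside these windows were not searched, so a window without GGCGCC does not mean that the gene lacks it further upstream.

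Libraries held 24348594 to 80195050 counts, with replicate 2 of EPZ5676 ALDH1+ the deepest. Replicates of each group differed beyond sampling noise, since chi-square divided by its degrees of freedom was 3.74 to 30.4 over genes. DOT1L, the target of the inhibitor, averaged 63.3 ± 1.1 CPM in EPZ5676 ALDH1+ cells and 68.4 ± 7.5 CPM in DMSO ALDH1+ cells (SD, n = 3 each), a log2 difference of -0.11 (edgeR quasi-likelihood test, Benjamini-Hochberg adjusted p = 0.413). In ALDH1- cells DOT1L averaged 66.8 ± 8.1 CPM under EPZ5676 and 79.2 ± 5.3 CPM under DMSO (SD, n = 3 each). The libraries ranged from 57.7 to 73.0 CPM and from 75.8 to 85.3 CPM. An inhibitor of enzyme activity need not change the level of its target's RNA, so these levels do not check the treatment. ALDH1A1, the gene of an ALDH1 enzyme, averaged 33.1 ± 5.2 CPM in DMSO ALDH1+ cells and 25.3 ± 2.9 CPM in DMSO ALDH1- cells (SD, n = 3 each; edgeR adjusted p = 0.201, or 0.0254 with replicate number added to the fit as a block). Under EPZ5676 it had 11.8 ± 2.1 CPM in ALDH1+ cells and 11.95 ± 1.8 CPM in ALDH1- cells (SD, n = 3 each). The 6 epithelial markers summed to 13118 to 18100 CPM over the libraries, with EGFR at 4598 to 11457 CPM. Under EPZ5676 in ALDH1+ cells EGFR rose by 0.63 on the log2 scale, CDH1 fell by 0.55, EPCAM by 0.28 and KRT8 by 0.25, and KRT18 and KRT5 were not called. In ALDH1- cells CDH1 fell by 0.67 and the others were not called. The block added KRT18 lower in ALDH1+ cells (-0.17) and EGFR higher in ALDH1- cells (0.31).

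The unit of level is CPM (counts per 1000000 of the TMM-scaled library size), and 3 values of a group stand in the order of replicates 1 to 3. CPM compares a gene between libraries, so levels of different genes were set side by side per kilobase of merged exons (GENCODE v29). On that scale the ID genes had the higher means of the 10 in each group. Under EPZ5676 the ID1 mean was above that of BMP8B by less than the SD of ID1. In EPZ5676 ALDH1+ cells they were 10.2 ± 4.7 and 8.43 ± 0.97 CPM per kilobase (SD, n = 3). In EPZ5676 ALDH1- cells they were 8.82 ± 4.0 and 7.3 ± 0.35 CPM per kilobase (SD, n = 3), so the place of ID1 above the ligand genes is not firm there. In EPZ5676 ALDH1+ cells, ID2 had 18.2 ± 2.1, ID4 16.1 ± 3.3, ID3 13.4 ± 2.5 and ID1 10.2 ± 4.7 CPM per kilobase (SD, n = 3). In DMSO ALDH1+ cells, ID3 led with 27.2 ± 3.7 CPM per kilobase, followed by ID4 with 18.6 ± 4.1, ID1 with 17.8 ± 10.2 and ID2 with 17.6 ± 2.4 (SD, n = 3), the last 3 of which lay within each other's spread. The 5 ligand genes spanned 2.42 to 8.43 CPM per kilobase in EPZ5676 ALDH1+ cells and 1.24 to 6.80 CPM per kilobase in DMSO ALDH1+ cells, with BMP6 the lowest of them in both. GREM1 was the lowest of the 10 genes in each group, with 1.79 ± 0.57 CPM per kilobase in EPZ5676 ALDH1+ cells and 0.0917 ± 0.037 CPM per kilobase in DMSO ALDH1+ cells (SD, n = 3 each). Its annotated exons, at 14606 bases, are the longest of the 10, which lowers its level per kilobase if shorter transcripts are in use.

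**Figure D1:**
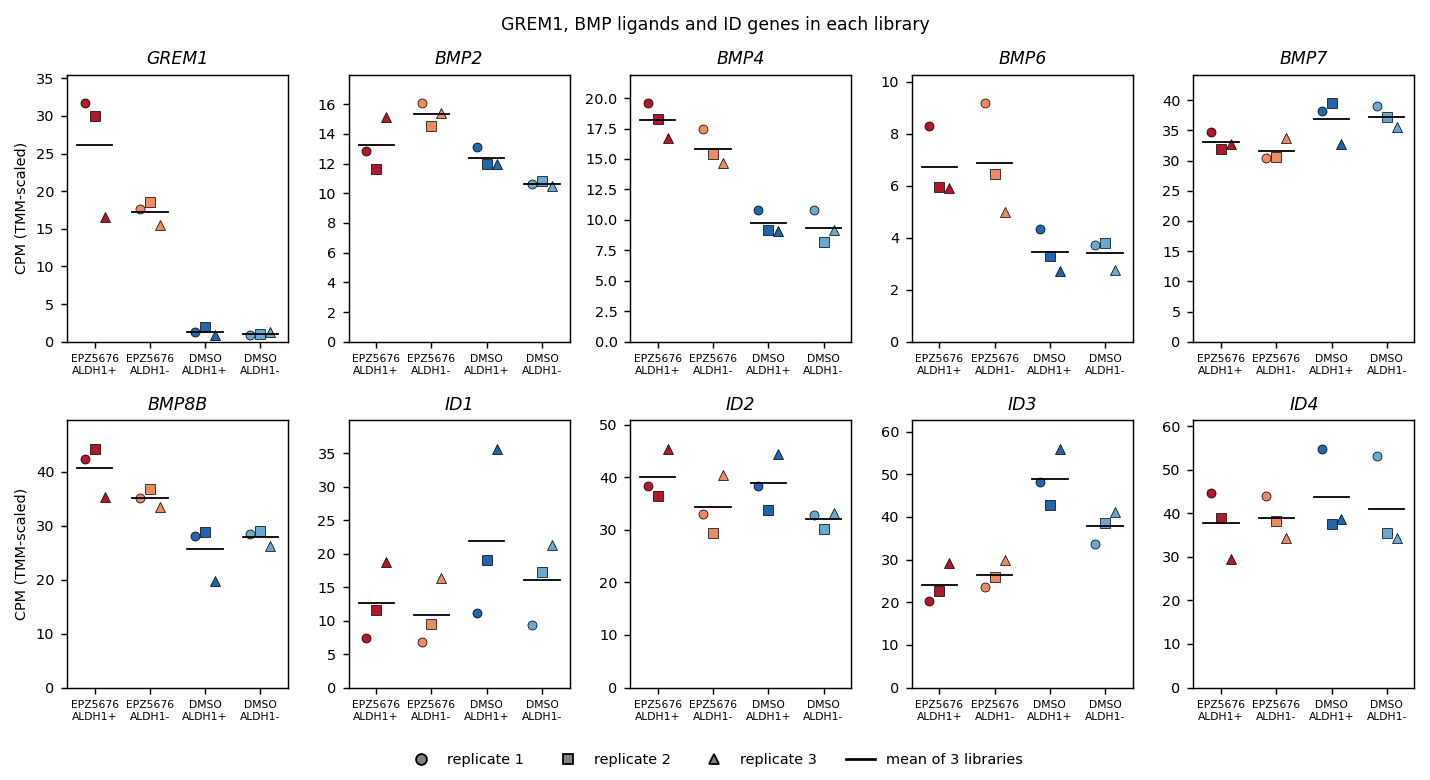
Level of each of the 10 genes in CPM (TMM-scaled, linear axis from 0) in the 12 libraries, by group, with a marker shape per replicate number and a bar at the mean of 3 libraries. GREM1 lies between 15.5 and 31.7 CPM in the 6 EPZ5676 libraries and between 0.832 and 1.91 CPM in the 6 DMSO libraries, and the triangles of replicate 3 are the highest ID1 points in each group.

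GREM1, the antagonist, was low in DMSO cells and over 10 times higher in EPZ5676 cells of both populations. It had 31.7, 30.0 and 16.6 CPM in EPZ5676 ALDH1+ libraries, against 1.27, 1.91 and 0.832 CPM in DMSO ALDH1+ libraries. In ALDH1- cells it had 17.7, 18.6 and 15.5 CPM under EPZ5676, against 0.916, 0.986 and 1.27 CPM under DMSO. Neither pair of groups overlapped, and the lowest EPZ5676 library stood far above the highest DMSO library. The raw counts behind the DMSO values were 25 to 48 per library, so these low levels rest on few reads. The log2 fold change was 4.39 (SE 0.28), or 20.9-fold, in ALDH1+ cells and 4.03 (SE 0.29), or 16.3-fold, in ALDH1- cells. Counted from the highest log2 fold change down, GREM1 ranked 25 among the 16327 genes tested in each of the 2 comparisons. In bulk RNA, a larger share of cells with GREM1 RNA and more GREM1 RNA per cell cannot be told apart. A lincRNA gene on the opposite strand of GREM1 had 7 counts in all 12 libraries, against 5341 for GREM1.

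The ligands BMP4 and BMP6, members of different BMP subgroups, were higher under EPZ5676 in both populations. BMP4 had 19.6, 18.3 and 16.7 CPM in EPZ5676 ALDH1+ libraries, against 10.8, 9.20 and 9.12 CPM in DMSO ALDH1+ libraries. In ALDH1- cells, BMP4 had 17.5, 15.4 and 14.7 CPM under EPZ5676, against 10.8, 8.16 and 9.18 CPM under DMSO. The groups did not overlap in either population, and the log2 fold changes were 0.91 (SE 0.12) in ALDH1+ cells and 0.76 (SE 0.12) in ALDH1- cells. BMP6 is the lowest of the 5 ligand genes per kilobase and a ligand best known for its control of hepcidin in the liver. It had 8.31, 5.94 and 5.93 CPM in EPZ5676 ALDH1+ libraries, against 4.33, 3.31 and 2.73 CPM in DMSO ALDH1+ libraries. BMP6 in ALDH1- cells had 9.18, 6.46 and 4.99 CPM under EPZ5676, against 3.70, 3.81 and 2.76 CPM under DMSO. Replicate 3 was the lowest of each group, yet the treatment groups did not overlap. Its log2 fold changes were 0.97 (SE 0.23) in ALDH1+ cells and 1.00 (SE 0.23) in ALDH1- cells, or 1.96-fold and 2.00-fold.

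BMP8B, a ligand studied in brown fat of mice, was higher under EPZ5676, and it was called in ALDH1+ cells. It had 42.4, 44.2 and 35.4 CPM in EPZ5676 ALDH1+ libraries, against 28.1, 28.9 and 19.8 CPM in DMSO ALDH1+ libraries, a log2 fold change of 0.68 (SE 0.12). In ALDH1- cells it had 35.2, 36.8 and 33.5 CPM under EPZ5676, against 28.4, 28.97 and 26.3 CPM under DMSO. These groups did not overlap either, but the log2 fold change of 0.34 (SE 0.13) was not called. It passed with the block (0.34, SE 0.082), without a filter on low counts (0.34) and with the compared groups alone (0.36). It also passed without replicate 3 of DMSO ALDH1+ (0.34) and with all libraries of replicate 3 left out (0.34). BMP8B counts carry an uncertainty, since its locus overlaps PPIE on the opposite strand and OXCT2 on the same strand, and BMP8A is a near-identical copy. PPIE, with 59393 counts in all libraries against 13449 for BMP8B, had a log2 fold change of -0.14 in ALDH1+ cells and was not called (edgeR adjusted p = 0.126). BMP8A had 0.46 (SE 0.23) in ALDH1+ cells and -0.09 (SE 0.23) in ALDH1- cells and was not called in either. With the block BMP8A was called higher in ALDH1+ cells (0.46, SE 0.18), the direction of BMP8B there, and not in ALDH1- cells (-0.10, SE 0.19).

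BMP2 was called higher under EPZ5676 in ALDH1- cells. It had 16.1, 14.6 and 15.4 CPM in EPZ5676 ALDH1- libraries, against 10.6, 10.8 and 10.5 CPM in DMSO ALDH1- libraries, with no overlap and a log2 fold change of 0.53 (SE 0.11). In ALDH1+ cells BMP2 had 12.9, 11.6 and 15.2 CPM under EPZ5676, against 13.1, 11.99 and 11.9 CPM under DMSO. These groups overlapped, the fold change was 0.09 (SE 0.10) on the log2 scale, and it was not called. BMP7 is another of the ligands that GREM1 binds, and it was the member of the 5 ligand genes with lower means under EPZ5676 in both populations. It had 34.7, 31.9 and 32.8 CPM in EPZ5676 ALDH1+ libraries, against 38.2, 39.5 and 32.8 CPM in DMSO ALDH1+ libraries. Its level in ALDH1- libraries was 30.4, 30.7 and 33.7 CPM under EPZ5676, against 39.0, 37.2 and 35.5 CPM under DMSO. The ALDH1+ groups overlapped and the ALDH1- groups did not. BMP7 had log2 fold changes of -0.15 (SE 0.083) in ALDH1+ cells and -0.24 (SE 0.084) in ALDH1- cells, which were not called, and the value in ALDH1- cells was called lower with the block (-0.24, SE 0.078). Without replicate 3 of DMSO ALDH1+, BMP7 was called lower in both populations (-0.23 in each), and without replicate 3 of EPZ5676 ALDH1- it was called lower in ALDH1- cells (-0.28). With all libraries of replicate 3 left out it was also called lower in ALDH1- cells (-0.31).

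Among the ID genes, ID3 was lower under EPZ5676 in both populations. ID3 had 20.3, 22.7 and 29.1 CPM in EPZ5676 ALDH1+ libraries, against 48.1, 42.7 and 55.9 CPM in DMSO ALDH1+ libraries. The groups were far apart, with a log2 fold change of -1.03 (SE 0.14), a level 0.49 times that of DMSO. In ALDH1- cells it had 23.5, 25.9 and 30.0 CPM under EPZ5676, against 33.6, 38.6 and 41.1 CPM under DMSO, and here too the groups did not overlap. The log2 fold change was -0.51 (SE 0.14). That call was lost when replicate 1 (-0.43) or replicate 2 (-0.49) of EPZ5676 ALDH1- or replicate 3 of DMSO ALDH1- (-0.44) was left out.

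ID1, the ID gene most often used as a readout of BMP signalling, varied more between replicates than any other of the 10 genes in each of the 4 groups, with a coefficient of variation of 38.2 to 57.2%. It had 7.45, 11.5 and 18.8 CPM in EPZ5676 ALDH1+ libraries, against 11.1, 19.0 and 35.6 CPM in DMSO ALDH1+ libraries. In ALDH1- cells it had 6.81, 9.44 and 16.4 CPM under EPZ5676, against 9.35, 17.3 and 21.3 CPM under DMSO. The groups overlapped in both populations, but in each of the 3 replicate numbers the EPZ5676 library was below the DMSO library of the same number. Those differences were -0.57, -0.73 and -0.92 on the log2 scale in ALDH1+ cells and -0.46, -0.87 and -0.38 in ALDH1- cells. The log2 fold changes were -0.82 (SE 0.41) in ALDH1+ cells and -0.56 (SE 0.43) in ALDH1- cells and were not called. With the block they were -0.77 (SE 0.11) and -0.58 (SE 0.11), and both were called lower. Without a filter on low counts they were -0.83 (SE 0.12) and -0.56 (SE 0.12), and both were called lower there too. Leaving out replicate 3 of EPZ5676 ALDH1+ or replicate 1 of DMSO ALDH1+ also gave a call in ALDH1+ cells, with log2 fold changes of -1.20 and -1.14, while without replicate 3 of DMSO ALDH1+ it was -0.26. Over all single libraries left out, the ID1 value ranged from -1.20 to -0.26 in ALDH1+ cells and from -0.97 (without replicate 3 of EPZ5676 ALDH1-) to -0.29 (without replicate 3 of DMSO ALDH1-) in ALDH1- cells, where none of these fits gave a call.

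ID2 and ID4 were not called in either treatment comparison, in the fits with and without the block. ID2 had 38.4, 36.5 and 45.4 CPM in EPZ5676 ALDH1+ libraries, against 38.4, 33.8 and 44.5 CPM in DMSO ALDH1+ libraries, a log2 fold change of 0.04 (SE 0.12). In ALDH1- cells ID2 had 33.0, 29.5 and 40.4 CPM under EPZ5676, against 32.9, 30.1 and 33.2 CPM under DMSO, or 0.10 (SE 0.12) on the log2 scale. Replicates 1 and 2 were nearly equal between treatments in both populations. ID4, which in breast tissue is found in basal cells, had 29.5 to 44.7 CPM in EPZ5676 ALDH1+ libraries, against 37.6 to 54.8 CPM in DMSO ALDH1+ libraries. Its log2 fold changes were -0.21 (SE 0.19) in ALDH1+ cells and -0.08 (SE 0.19) in ALDH1- cells, where it had 34.3 to 43.9 CPM under EPZ5676, against 34.4 to 53.2 CPM under DMSO. The groups overlapped in each population.

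Counted together, 4 of the 10 genes were called higher (GREM1, BMP6, BMP4 and BMP8B) and 1 lower (ID3) under EPZ5676 in ALDH1+ cells. Of all genes tested there, 17.8% were called higher and 13.7% lower, 31.5% in all. The ALDH1- comparison had 4 called higher (GREM1, BMP6, BMP4 and BMP2) and 1 called lower (ID3), where 13.6% of all genes were called higher and 9.04% lower, 22.6% in all. With the replicate number as a block, the counts became 4 higher and 2 lower in ALDH1+ cells, where that fit called 22.2% of all genes higher and 19.6% lower. In ALDH1- cells they became 5 higher and 3 lower, beside 17.4% and 14.8% of all genes. Groups did not overlap for 5 of the 10 genes in ALDH1+ cells and for 7 in ALDH1- cells, against 41.4% and 39.1% of all genes. The median log2 fold change of the 10 genes was 0.07 in ALDH1+ cells and 0.22 in ALDH1- cells, beside -0.01 and -0.02 over all genes. The genes were proposed from such comparisons, so nothing is read from these counts.

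**Figure D2:**
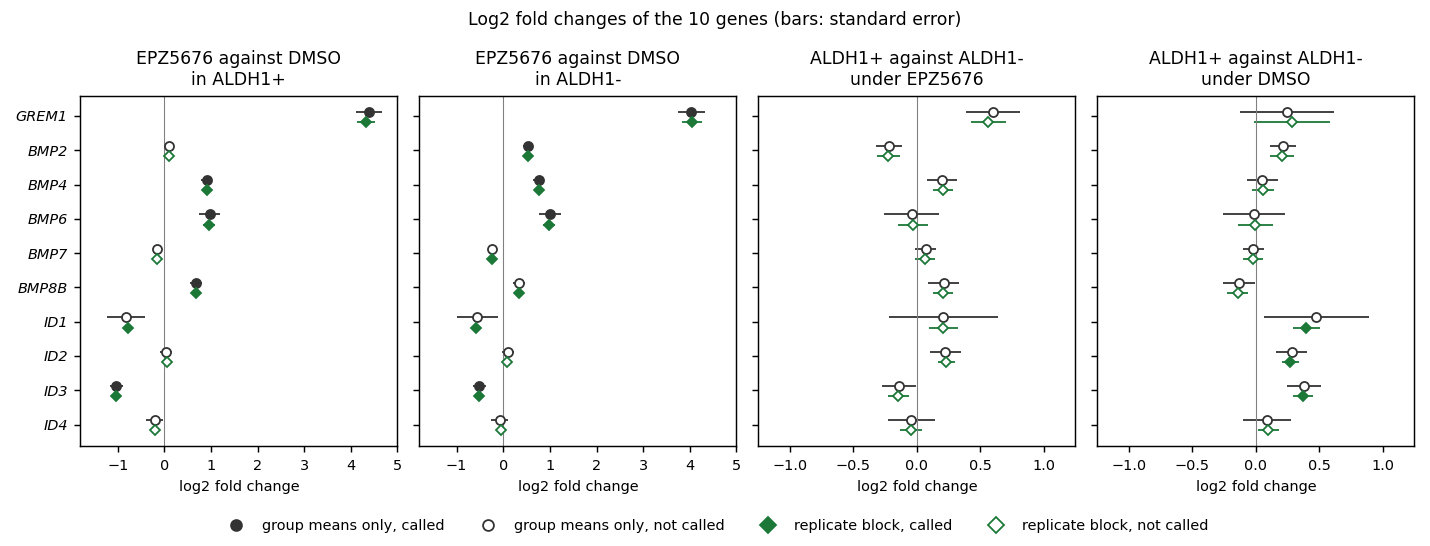
Log2 fold change (horizontal axis, bars are 1 standard error) of the 10 genes in the 4 pairwise comparisons, from the fit of group means (circles) and with the replicate number as a block (diamonds), filled where called (a description only in the treatment panels); the axes of the treatment and population panels differ. GREM1 lies at 4.39 and 4.03 in the treatment panels, and the ID1 bar shortens to 0.11 with the block in ALDH1+ cells.

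Between the sorted populations under EPZ5676, none of the 10 genes was called, and 3 of 16327 genes (0.0184%) were called at all. Without adjustment 1032 genes had p below 0.05. DESeq2 called 31 genes, limma-voom called 3, and the block called 75, with none of the 10 among those of the block. GREM1 had the largest difference of the 10, with 31.7, 30.0 and 16.6 CPM in ALDH1+ libraries, against 17.7, 18.6 and 15.5 CPM in ALDH1- libraries. Replicates 1 and 2 were higher in ALDH1+ cells, by 0.84 and 0.69 on the log2 scale, and replicate 3 was nearly level at 0.10. The log2 fold change was 0.60 (SE 0.21, 95% interval 0.14 to 1.06, edgeR adjusted p = 0.695). With the 4 libraries of replicate 3 left out, a choice made after the data were seen, it was 0.76 (SE 0.12, edgeR adjusted p = 0.0247). No filter on low counts also gave a call, with 0.62 (SE 0.12 against 0.21 with the filter, edgeR adjusted p = 3.20e-04). Over all alternatives the adjusted p for GREM1 ranged from 3.20e-04 to 1.00, and it was 0.102 without replicate 3 of EPZ5676 ALDH1+ (log2 fold change 0.84). The other 9 genes had log2 differences between -0.22 (BMP2) and 0.23 (ID2), with adjusted p of 0.784 or more in edgeR. BMP2 had 13.2 ± 1.8 CPM in EPZ5676 ALDH1+ cells and 15.4 ± 0.76 CPM in EPZ5676 ALDH1- cells (SD, n = 3 each; log2 difference 95% interval -0.44 to -0.0016). For ID1 the interval of -0.71 to 1.13 in the fit of group means spanned the size of its difference between treatments. With the block the ID1 difference was 0.21 with a smaller SE of 0.11 (edgeR adjusted p = 0.469). Groups did not overlap for 0 of the 10 genes, against 9.57% of all genes.

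Under DMSO, again none of the 10 was called between ALDH1+ and ALDH1- cells, and no gene was called over the whole table (0%). Without adjustment 2904 genes had p below 0.05, DESeq2 called 298 genes, limma-voom called 0, and the block called 1384. With the block, ID1, ID2 and ID3 were called higher in ALDH1+ cells, beside 3.45% of all genes called higher in that fit. ID3 had 48.1, 42.7 and 55.9 CPM in ALDH1+ libraries, against 33.6, 38.6 and 41.1 CPM in ALDH1- libraries, which did not overlap. Its log2 fold change was 0.38 (SE 0.13, 95% interval 0.090 to 0.66, edgeR adjusted p = 0.190) and 0.37 (SE 0.076, edgeR adjusted p = 0.0160) with the block. ID2 had 38.4, 33.8 and 44.5 CPM in ALDH1+ libraries, against 32.9, 30.1 and 33.2 CPM in ALDH1- libraries. These groups did not overlap either, with a log2 fold change of 0.28 (SE 0.12, edgeR adjusted p = 0.254) and 0.27 (SE 0.069, edgeR adjusted p = 0.0291) with the block. ID1 was higher in the ALDH1+ library of each replicate number, by 0.24, 0.14 and 0.74 on the log2 scale. Its fold change was 0.48 (SE 0.41, edgeR adjusted p = 0.573) and 0.40 (SE 0.11, edgeR adjusted p = 0.0344) with the block. Without a filter on low counts, ID1 (0.50, SE 0.12, edgeR adjusted p = 0.00313) and ID3 (0.40, SE 0.10, edgeR adjusted p = 0.00688) were also called. That fit used the same libraries, and the ID1 SE was 0.41 with the filter, so the ID1 call rests on the smaller SE. Why the SE was smaller was not tested. Over all alternatives the adjusted p ranged from 0.00313 to 0.974 for ID1, from 0.0291 to 0.735 for ID2 and from 0.00688 to 0.645 for ID3. Without replicate 3 of DMSO ALDH1+ the ID1 difference turned to -0.08.

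The fourth family member, ID4, had a log2 difference of 0.09 (SE 0.19, 95% interval -0.31 to 0.49, edgeR adjusted p = 0.845) between ALDH1+ and ALDH1- cells under DMSO. BMP2 had 12.4 ± 0.67 CPM in DMSO ALDH1+ cells and 10.6 ± 0.17 CPM in DMSO ALDH1- cells (SD, n = 3 each). These BMP2 groups did not overlap, with a log2 fold change of 0.21 (SE 0.11, edgeR adjusted p = 0.305). GREM1 had 1.34 ± 0.54 CPM in DMSO ALDH1+ cells and 1.06 ± 0.19 CPM in DMSO ALDH1- cells (SD, n = 3 each), a log2 fold change of 0.24 with a 95% interval of -0.55 to 1.03 (edgeR adjusted p = 0.773). That interval includes the 0.60 measured under EPZ5676. BMP4, BMP6, BMP7 and BMP8B had log2 differences between -0.13 and 0.05 (edgeR adjusted p of 0.608 or more). Groups did not overlap for BMP2, ID2 and ID3, 3 of the 10 genes, against 23.1% of all genes.

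Whether the response to EPZ5676 differed between the populations was tested by the interaction, the log2 fold change in ALDH1+ cells minus that in ALDH1- cells. None of the 10 genes and none of the 16327 tested was called (0%), while 597 had an unadjusted p below 0.05. DESeq2, limma-voom and the block each called 0 genes. The largest values among the 10 were those of ID3 and BMP2. For ID3 the interaction was -0.52 (SE 0.19, 95% interval -0.93 to -0.11, edgeR adjusted p = 0.979), with the EPZ5676 effect below 0 by more in ALDH1+ cells. BMP2 had -0.43 (SE 0.15, 95% interval -0.75 to -0.12, edgeR adjusted p = 0.979), with 0.09 in ALDH1+ cells minus 0.53 in ALDH1- cells. With the block, ID3 had -0.52 (SE 0.11, edgeR adjusted p = 0.297) and BMP2 -0.43 (SE 0.13, edgeR adjusted p = 0.392). For GREM1 the interaction in the fit of group means was 0.36 with an interval of -0.56 to 1.28. Leaving out single libraries moved it between 0.0079 (without replicate 3 of DMSO ALDH1+) and 0.67 (without replicate 2 of DMSO ALDH1+). BMP8B had 0.34 (95% interval -0.033 to 0.72), and 0.17 to 0.44 with single libraries left out, the lowest again without replicate 3 of DMSO ALDH1+. A call in 1 population and not in the other, as for BMP2 and BMP8B, is thus not shown to be a difference between them.

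The replicate numbers accounted for much of the spread within groups for several of the 10 genes, and not in the same direction for all. ID1 was lowest in replicate 1 and highest in replicate 3 in 4 of 4 groups. Its mean deviation from the group mean was -0.68, 0.0046 and 0.68 on the log2 scale in replicates 1, 2 and 3. ID2 and ID3 were also highest in replicate 3 in 4 of 4 groups, by 0.17 and 0.20 on average. ID4 and BMP4 had their highest value in replicate 1 in 4 of 4 groups, by 0.30 and 0.16 on average. BMP6 and BMP8B had their lowest value in replicate 3 in 4 of 4 groups, at -0.29 and -0.17, and GREM1 did so in 3 of 4 groups, at -0.26. What the numbers stand for beyond replicate is not given in the labels.

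**Figure D3:**
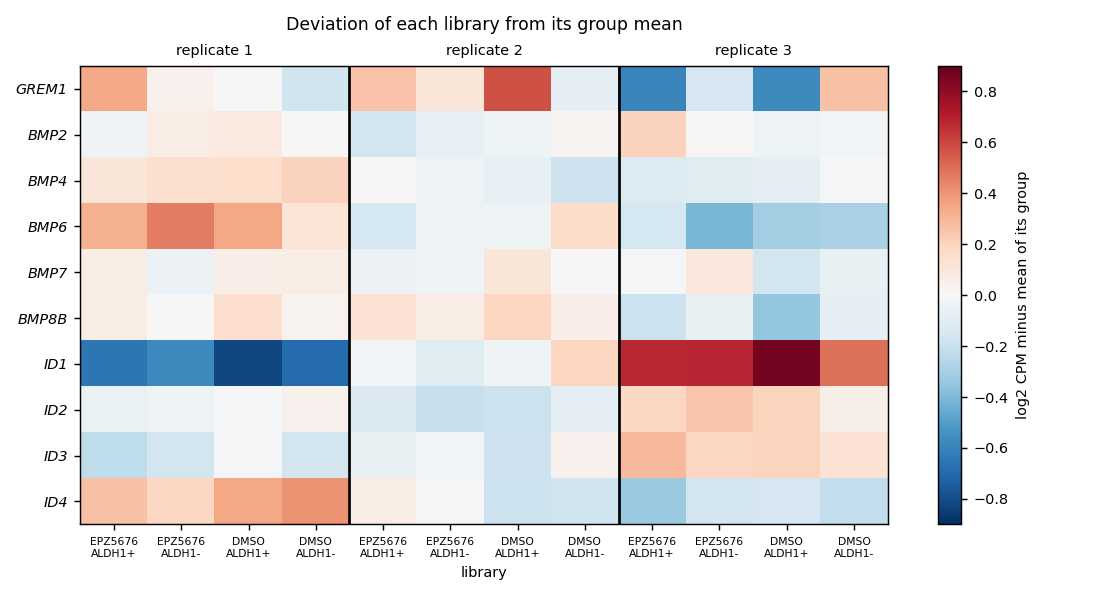
Deviation of log2 CPM from the mean of its group (colour scale, red above and blue below) for the 10 genes (rows) in the 12 libraries (columns), ordered by replicate number. The ID1 row runs from -0.82 to -0.58 in the 4 libraries of replicate 1 and from 0.50 to 0.86 in the 4 libraries of replicate 3.

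Other genes of the pathway were described from lists, chosen like the 10 genes with earlier results known, so their counts and values are likewise given as a description beside the shares of all genes called (17.8% higher and 13.7% lower in ALDH1+ cells, 13.6% and 9.04% in ALDH1- cells). Of 14 BMP antagonists besides GREM1, 8 were tested, and 4 rose and 0 fell under EPZ5676 in each population. The median log2 fold change of the 8 was 0.73 in ALDH1+ cells and 1.02 in ALDH1- cells, beside -0.01 and -0.02 over all genes. NOG, which encodes the BMP antagonist noggin, had 6.13, 6.27 and 3.91 CPM in EPZ5676 ALDH1+ libraries, against 1.38, 0.717 and 0.797 CPM in DMSO ALDH1+ libraries. The groups did not overlap, with a log2 fold change of 2.53 (SE 0.26) in ALDH1+ cells and 2.19 (SE 0.27) in ALDH1- cells. CHRD, which encodes chordin, rose by 2.67 (SE 0.40) in ALDH1+ cells and 2.85 (SE 0.47) in ALDH1- cells, from only 16 and 10 counts in all in the DMSO groups. FSTL3, a follistatin-like protein that binds activins, rose by 1.41 (SE 0.16) and 1.15 (SE 0.16), with 28.4 ± 5.0 CPM in EPZ5676 ALDH1+ cells and 10.8 ± 1.5 CPM in DMSO ALDH1+ cells (SD, n = 3 each). FST, which encodes follistatin, rose by 1.15 (SE 0.41) in ALDH1+ cells and 2.19 (SE 0.44) in ALDH1- cells at levels of 0.0768 to 1.31 CPM over the libraries. SOSTDC1, NBL1, DAND5 and TWSG1 were not called, except that SOSTDC1 was called higher in ALDH1- cells with the block (0.89, SE 0.31).

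Receptors and co-receptors moved in both directions. Of 10 tested, 3 rose and 2 fell in ALDH1+ cells, and 2 rose and 2 fell in ALDH1- cells, beside 31.5% and 22.6% of all genes called. The block added 1 lower in each, BMPR1A (-0.19) in ALDH1+ and ACVR2A (-0.38) in ALDH1- cells. The median log2 fold change was 0.03 in ALDH1+ cells and -0.09 in ALDH1- cells. The BMP co-receptor RGMA fell by 0.78 (SE 0.098) in ALDH1+ cells and by 0.73 (SE 0.10) in ALDH1- cells on the log2 scale. Its relative RGMB rose by 0.77 (SE 0.20) and 0.70 (SE 0.20). ENG, encoding the co-receptor endoglin, rose by 0.89 (SE 0.22) and 0.81 (SE 0.22). The type II receptor gene ACVR2A fell by 0.44 in ALDH1+ cells (SE 0.13), and the type I receptor gene BMPR1A fell by 0.34 in ALDH1- cells (SE 0.092).

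Of 7 SMAD and SMURF genes tested, SMAD1 fell and SMURF2 rose in both populations. SMAD1, a direct substrate of BMP receptors, had 21.3, 22.4 and 30.3 CPM in EPZ5676 ALDH1+ libraries, against 39.9, 40.3 and 41.6 CPM in DMSO ALDH1+ libraries. Its log2 fold change was -0.72 in each population (SE 0.13 in ALDH1+ and 0.14 in ALDH1- cells). SMURF2, a ubiquitin ligase that targets SMADs and receptors, rose by 0.68 (SE 0.15) in ALDH1+ cells and 0.65 (SE 0.15) in ALDH1- cells. The median of the list was 0.04 in both populations. SMAD4, named after its values were seen, had 0.384 to 0.714 CPM in the 12 libraries and overlapping groups. Other BMP ligand genes gave no call (0 of 3 tested, BMP3, BMP5 and BMP8A), at a median of 0.46 in ALDH1+ cells and -0.09 in ALDH1- cells. With the block BMP8A, as given above, and BMP3 (0.96, SE 0.35) were called higher in ALDH1+ cells, and BMP3 (1.44, SE 0.45) in ALDH1- cells. BMP3 was at 0.154 to 0.944 CPM over the libraries.

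Of 6 further BMP response genes tested, 2 rose and 0 fell in each population, at a median of 0.23 in ALDH1+ cells and 0.12 in ALDH1- cells. BAMBI, a pseudoreceptor that dampens signalling and is itself induced by BMPs, rose by 0.69 (SE 0.11) in ALDH1+ cells and 0.59 (SE 0.11) in ALDH1- cells. HEY1, a repressor that also answers to Notch, rose by 0.86 in ALDH1+ cells (SE 0.27), and the homeobox gene DLX2 rose by 0.70 in ALDH1- cells (SE 0.24). The inhibitory SMAD genes SMAD6 and SMAD7, also BMP targets, were not called, but with the block SMAD7 was called higher in ALDH1+ cells (0.30, SE 0.11). Beside them stand the ID genes, of which ID3 was lower and ID1, ID2 and ID4 were not called. With the block ID1 was called lower as well (-0.77 in ALDH1+ and -0.58 in ALDH1- cells). Of the E proteins that ID proteins bind, TCF3 was tested, and it fell by 0.47 (SE 0.071) in ALDH1+ cells and by 0.44 (SE 0.071) in ALDH1- cells. TCF4 and TCF12 had at most 2 counts in a library.

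**Figure D4:**
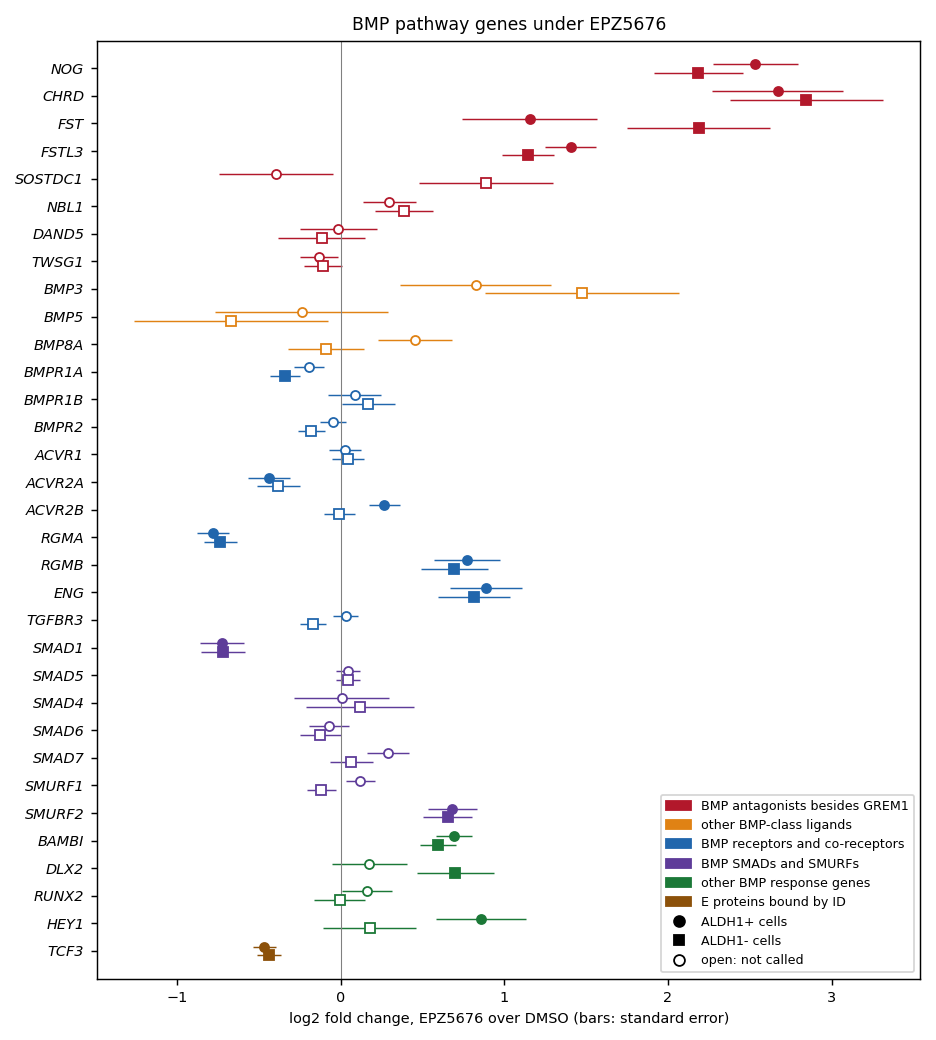
Log2 fold change of EPZ5676 over DMSO (horizontal axis, bars are 1 standard error) for the listed BMP pathway genes tested, other than the 10 genes, in ALDH1+ (circles) and ALDH1- cells (squares), coloured by list and filled where called. NOG, CHRD, FST and FSTL3 lie to the right of 1 in both populations, and SMAD1 and RGMA lie between -0.78 and -0.72.

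GREM1 is best known from fibroblasts and other stromal cells, so markers of other cell types were followed beside it. The 8 fibroblast markers summed to 21.5 to 25.2 CPM in EPZ5676 ALDH1+ libraries and 18.7 to 20.7 CPM in EPZ5676 ALDH1- libraries, against 9.05 to 14.2 CPM in DMSO ALDH1+ libraries and 10.6 to 13.6 CPM in DMSO ALDH1- libraries. LUM and DCN were at 0 in all 12 libraries. COL1A2 averaged 0.288 and 0.214 CPM in EPZ5676 ALDH1+ and ALDH1- cells, against 0.0931 and 0.0733 CPM in DMSO ALDH1+ and ALDH1- cells. In the same order COL3A1 had 0.128 and 0.0366 against 0 and 0 CPM, and PDGFRA 0.0874 and 0.0649 against 0.0416 and 0.0372 CPM. PDGFRB had 0.165 and 0.300 against 0.0741 and 0.188 CPM, and THY1 0.0308 and 0.0249 against 0.0490 and 0.0486 CPM. These genes rest on few counts and did not pass the filter. COL1A1 made up most of each sum, with 24.3, 24.6 and 20.7 CPM in EPZ5676 ALDH1+ libraries, against 13.9, 11.99 and 8.76 CPM in DMSO ALDH1+ libraries. The 5 leukocyte and endothelial markers in the table summed to 9.77 to 12.7 CPM in EPZ5676 ALDH1+ libraries and 11.5 to 16.98 CPM in EPZ5676 ALDH1- libraries. In DMSO libraries they summed to 7.13 to 8.59 CPM in ALDH1+ cells and 8.75 to 11.4 CPM in ALDH1- cells. Most of this was CSF1R, a macrophage receptor gene, and the T cell marker CD3E had at most 1 count in a library. Under EPZ5676, 3 of the 4 tested were called higher in ALDH1+ cells, CSF1R (0.75), VWF (2.25) and PTPRC (1.53), and CD14 was called lower (-1.21). Of all genes tested there, 17.8% were called higher and 13.7% lower. In ALDH1- cells CSF1R (0.67) and PTPRC (2.06) were called higher, beside 13.6% of all genes. PTPRC and VWF were below 1 CPM in every library. The part of these RNAs in the values of the 10 genes was not tested.

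The genes whose pattern over the 12 libraries was most like that of GREM1 were sought among 11955 genes with a symbol and a mean of at least 1 on the log2 CPM scale. WNT7A (Pearson r = 0.995), STK39 (0.995), ZBED2 (0.993), PYGL (0.992) and FN1 (0.992) came first. The libraries fall into treated and untreated ones, so these correlations mostly restate which genes were higher under EPZ5676. WNT7A, a WNT ligand gene, averaged 7.69 CPM in EPZ5676 ALDH1+ and 5.72 CPM in EPZ5676 ALDH1- cells, against 0.732 CPM in DMSO ALDH1+ and 0.628 CPM in DMSO ALDH1- cells. FN1, encoding fibronectin, averaged 162 CPM in EPZ5676 ALDH1+ and 144 CPM in EPZ5676 ALDH1- cells, against 11.4 CPM in DMSO ALDH1+ and 11.7 CPM in DMSO ALDH1- cells. For deviations from the group means, the same 5 genes had r of 0.79 to 0.83 with GREM1. They were picked on these same libraries, so this is no separate check.

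For ID1 the most similar genes were IER5L (r = 0.967), SASS6 (0.957), RAB33B-AS1 (0.955), RAD1 (0.955) and DEK (0.955). After removal of the group means their r with ID1 was 0.95 to 0.99. These genes were picked by r over the same libraries, where ID1 differed strongly between replicate numbers. A high r within groups thus follows largely from the choice and is no separate check. IER5L averaged 20.7 CPM in EPZ5676 ALDH1+ and 22.2 CPM in EPZ5676 ALDH1- cells, against 33.5 CPM in DMSO ALDH1+ and 29.1 CPM in DMSO ALDH1- cells. DEK, a chromatin protein gene, averaged 707 CPM in EPZ5676 ALDH1+ and 702 CPM in EPZ5676 ALDH1- cells, against 864 CPM in DMSO ALDH1+ and 756 CPM in DMSO ALDH1- cells. These are descriptions over 12 libraries that share treatment and replicate numbers, and no p-value is given.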

How the data were processed

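Bulk RNA was sequenced in 12 libraries from a directional kit, per the labels' protocols. Trim Galore, STAR and hg19 stand in the submitters' processing notes with no version, and what counted the reads, on which strand and on which annotation is not given in the sources used here. One table from the authors, as deposited, holds whole-number counts per gene, without normalization; 0 sample columns were left out. All further values were computed here.

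Identifiers were matched to symbols without their version. In edgeR 4.0.16 (R 4.3.3), filterByExpr by group left 16327 of 57783 genes, with TMM factors of 0.975 to 1.021. One model of all 12 libraries had a term per group (quasi-likelihood F test, 2-sided, common biological coefficient of variation 9.58%). Genes with a Benjamini-Hochberg adjusted p under 0.05, over all genes tested, were called. Standard errors were derived from F and the fold change. The test was tried on simulated counts. With 24348594 counts or more per library, 3 counts equal at most 0.122 CPM; intervals are 95%.

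The 10 genes, the lists and the rule for naming genes were chosen with earlier results of these data known. The rule named the 10 genes, DOT1L and ALDH1A1, up to 4 called genes of each pathway list with the smallest p, and the 5 genes most like GREM1 and ID1; markers of cell types were named after their values were seen.

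Replicate numbers recur in the labels of all groups. Deviations from group means over 12354 genes correlated at 0.166 to 0.648 in all 18 same-number pairs and at -0.663 to 0.217 otherwise, so they pair the libraries, and a block for the number was an alternative. Others were median-ratio scaling, unscaled totals, no filter, a filter of 1 CPM in 3 libraries, DESeq2 1.42.0, limma-voom (limma 3.58.1), the compared groups alone, and each library left out. Leaving out all 4 libraries of replicate 3 was added after the data were seen. Gene lengths (GENCODE v29) and promoters (RefSeq) are from GRCh38, not the build of the counts, so only promoter windows carry coordinates.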

Additional observations from a re-analysis of the deposited data

How the results depend on the processing

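For the 10 genes, 50 log2 fold changes were refitted under each alternative, 1040 refits in all; 966 kept their direction and their side of the threshold, 23 passed it in addition, 3 no longer passed it and 48 changed sign, 0 of these among called values. The cause of these changes was not tested. The replicate block raised the genes called among the 10 to 8 in EPZ5676 against DMSO in ALDH1- cells and to 3 in ALDH1+ against ALDH1- under DMSO, and changed no other call of the 10 than ID1 lower in EPZ5676 against DMSO in ALDH1+ cells. In ALDH1+ against ALDH1- under EPZ5676, where 3 genes were called over the whole table, the block called 75, no filter 235, DESeq2 31, the compared groups alone 5 and the fit without replicate 3 called 61; leaving out single libraries gave 0 to 21. No filter, and leaving out replicate 3, each called 1 of the 10. Under DMSO, against 0 called, the block called 1384 genes, no filter 948 with 2 of the 10, DESeq2 298, and leaving out single libraries gave 0 to 1. The interaction had 37 calls without a filter.

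With all 4 libraries of replicate 3 left out, EPZ5676 against DMSO was -0.047 for BMP2 in ALDH1+ and -0.0067 for ID2 in ALDH1- cells; ALDH1+ against ALDH1- was 0.020 for ID4 under EPZ5676, and 0.037 for BMP6 and BMP7 under DMSO; the interaction was 0.071 for ID1 and 0.054 for ID2. For BMP6, DESeq2 gave 0.0020 between populations under DMSO, and limma-voom gave 0.021 for the interaction. With single libraries left out, EPZ5676 against DMSO ranged from -0.016 to 0.18 for BMP2 and from -0.060 to 0.15 for ID2 in ALDH1+ cells, and from -0.034 to 0.20 for ID2 and from -0.18 to 0.15 for ID4 in ALDH1- cells. Between populations under EPZ5676 the ranges were -0.22 to 0.22 for BMP6, -0.17 to 0.62 for ID1 and -0.18 to 0.10 for ID4. Under DMSO they were -0.035 to 0.17 for BMP4, -0.21 to 0.16 for BMP6, -0.072 to 0.067 for BMP7, -0.23 to 0.036 for BMP8B, -0.073 to 0.59 for GREM1, -0.084 to 0.79 for ID1 and -0.11 to 0.32 for ID4. For the interaction they were -0.21 to 0.22 for BMP6, -0.65 to 0.29 for ID1, -0.16 to 0.069 for ID2 and -0.37 to 0.063 for ID4. Median-ratio scaling and unscaled totals moved the median of all genes by less than 0.1. In the fit of group means the SE was 0.41 and 0.43 for ID1 between treatments, and 0.37 for GREM1 between populations under DMSO. With the block, on the same libraries, it was 0.11 and 0.11 for ID1 and 0.30 for GREM1. Without a filter on low counts the SE was 0.12 and 0.12 for ID1 between treatments. With 3 libraries a group, such SE limit what can be shown. For ID1 they depend on whether the replicate number is in the fit and on whether low counts are filtered.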

Other observations

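Between ALDH1+ and ALDH1- cells, no other gene of the BMP pathway lists was called under EPZ5676 or under DMSO in the fit of group means. With the replicate number as a block, 3 of these genes were called under DMSO and 0 under EPZ5676. That fit called 3.45% of all genes higher and 5.02% lower under DMSO, and 0.19% and 0.269% under EPZ5676. The lists held 10 tested receptors and co-receptors, 8 antagonists, 3 other ligands, TCF3, 7 SMAD and SMURF genes and 6 response genes. SMAD6 and SMAD7 stand in both of the last-named lists. Nothing is read from the count of 3, and the genes are given as a description. ACVR2B, a type II receptor gene, was lower in ALDH1+ cells, with 9.07 ± 0.36 CPM in DMSO ALDH1+ cells and 11.7 ± 0.43 CPM in DMSO ALDH1- cells (SD, n = 3 each). The log2 fold change was -0.37 (SE 0.095, edgeR adjusted p = 0.161, or 0.0227 with the block). TWSG1, encoding a secreted BMP-binding protein, had 185 ± 11 CPM in DMSO ALDH1+ cells and 155 ± 23 CPM in DMSO ALDH1- cells (SD, n = 3 each), a log2 fold change of 0.26 (edgeR adjusted p = 0.269, or 0.0410 with the block). SMURF1, a ubiquitin ligase acting on BMP SMADs, had 95.9 ± 11.8 CPM in DMSO ALDH1+ cells and 111 ± 5.8 CPM in DMSO ALDH1- cells (SD, n = 3 each), with overlapping groups. Its log2 fold change was -0.21 (edgeR adjusted p = 0.241, or 0.0459 with the block).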
